A study of Homo sapiens with 14 samples.

Results

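Replicative senescence was described in IMR90, primary human fibroblasts from the fetal lung. The description used the 4 tables of transcript abundance that hold the states young and old of the isolates I79 and I10. The tables stand for 8 of the 14 samples of the series, and each gene's estimated reads were summed over its transcripts, with the isolates as the 2 replicates of the comparison. In the study, poly(A)-selected RNA was sequenced from proliferating IMR90, from cells passaged until they stopped dividing, from cells given the HMGB binder ICM, and from a knockdown of HMGB2. Only the passaged cells and their proliferating controls enter here. I79 young and I10 young were the proliferating cultures, and I79 old and I10 old were cultures of the same isolates carried by continuous passaging to replicative exhaustion. The labels name no drug and no transgene for these 4 groups, and give the same cell line and cell type for all. Each isolate is a single lineage of cultures, so a pattern seen in both rests on 2. A p-value below weighs the change from young to old against how far it differed between the 2 lineages. The variance behind it also borrows from the other genes. The titles list 2 samples for each group, while each table holds 1 column. Whether it pools them or holds 1 of them is not stated, so a value has no SD and no n.

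The estimated counts summed to 14991385 (I79) and 18246187 (I10) in the young state and to 19832964 (I79) and 20632959 (I10) in the old state. The 10 most abundant genes took between 9.32% and 10.6% of a table, and mitochondrial genes between 3.75% and 4.05%, so no table stood apart. Levels are given below as CPM, counts scaled to equal library size, with TMM, a method that balances the tables on the bulk of their genes. A difference is the log2 of old over young.

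Replicative senescence is the permanent arrest that normal diploid cells reach after many divisions, when shortened telomeres keep the DNA damage response active. The response stabilises p53, which raises the cyclin-dependent kinase inhibitor p21. Inhibited kinases leave RB-family proteins bound to E2F factors and the DREAM complex on the promoters of cell cycle genes. Arrested fibroblasts grow large, gain lysosomes, lose lamin B1 from the nuclear envelope and secrete matrix enzymes, growth factors and cytokines.

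The state labels were first set against 2 marker genes. LMNB1 (chromosome 5, 126112315 to 126172712 of GRCh37), which encodes lamin B1, fell in I79 from 73.9 to 8.30 CPM and in I10 from 84.1 to 14.04 CPM, which is -2.86 on the log2 scale (SE 0.18, edgeR quasi-likelihood adjusted p 0.00371). CDKN1A (chromosome 6, 36644237 to 36655114), which encodes p21, rose in I79 from 354 to 2349.8 CPM and in I10 from 341 to 1607 CPM (log2 change 2.48, SE 0.19, adjusted p 0.00434). Both old tables lay on the labelled side of both young tables for each gene. The cell type label was checked as well. Fibroblast markers stood at summed levels of 14964 and 15746 TPM, the length-scaled measure of abundance, in I79 young and old and of 15639 and 19982 TPM in I10 young and old. Of 14 epithelial markers 5 passed the filter on low counts, of 10 endothelial markers 4 and of 14 immune markers 2. KRT5, KRT14 and SFTPC of the epithelium, CDH5 of the endothelium and CD3D, CD3E and MS4A1 of lymphocytes were listed at 0 in all 4 tables. Epithelial markers still summed to 105 and 58.3 TPM in I79 young and old and to 115 and 57.8 TPM in I10 young and old. Of the 5 tested, 1 was called lower and 0 higher. Endothelial markers summed to 40.5 and 77.5 TPM in I79 and to 30.7 and 60.7 TPM in I10, where TEK, a receptor tyrosine kinase, rose (log2 change 1.24). Immune markers summed to 29.0 and 181 TPM in I79 and to 31.0 and 92.0 TPM in I10, of which CD68, a lysosomal membrane protein, rose (log2 change 2.37). The other immune marker tested, CD74, the invariant chain of MHC class II, went in I79 from 24 to 9 counts and in I10 from 28 to 3 counts and was not called (adjusted p 0.0431), with a ratio in I10 of 0.114 (counting interval 0.0221 to 0.368). The part of other cells in these values was not tested.

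Of 15135 genes that passed the filter on low counts, 1415 (9.35%) were called, which asked for a log2 change past 0.6 in either direction with an adjusted p below 0.01. Of all genes tested, 5.66% were called higher in old cells (856 genes) and 3.69% lower (559 genes), and these shares are the background for every count below. A second and looser count asks for a difference over 0.6 in the same direction in both isolates, with no test. It held for 14.1% of genes tested in the direction of old (2136) and for 13.1% in the other (1976). The median difference over all genes tested was -0.01. Of 12916 protein-coding genes 6.37% were called higher and 4.24% lower, and of 1682 long noncoding RNAs 27 were called higher and 7 lower. With either young table left out and no isolate term, which changes the samples and the model together, edgeR called 0 genes, with 4382 genes at an unadjusted p under 0.05 without I79 young and 4418 without I10 young, while it called 3154 without I79 old and 3836 without I10 old. Scaling by plain library totals moved the median of all genes to -0.22 and the split to 1026 higher and 2122 lower.

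**Figure D1:**
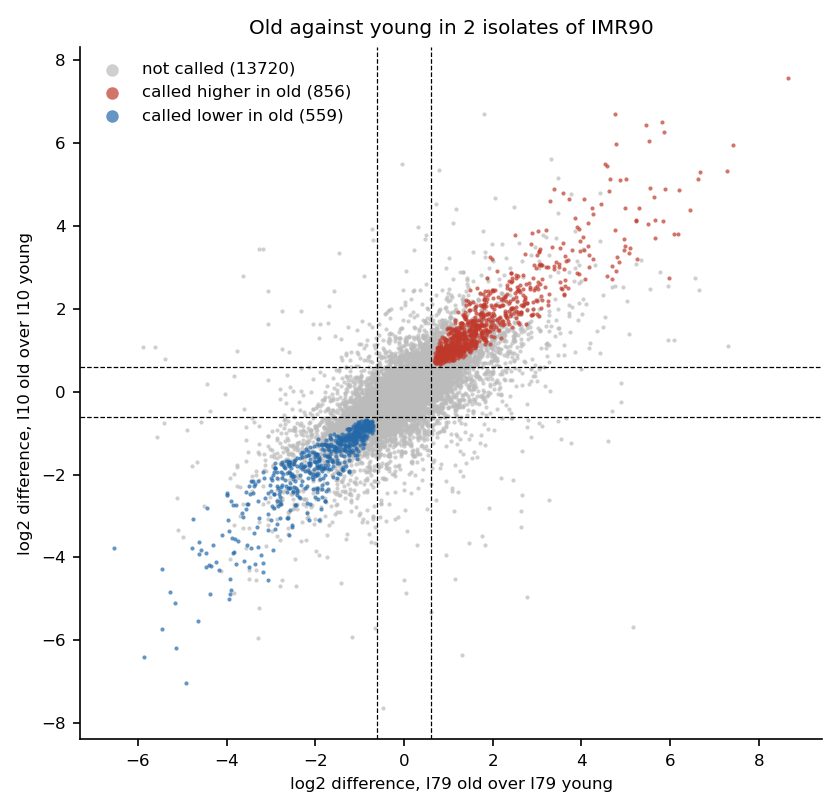
Log2 difference of old over young for each gene tested, in I79 on the horizontal axis and in I10 on the vertical axis, with called genes in colour. The 856 genes called higher lie in the upper right and the 559 called lower in the lower left, and the dashed lines mark 0.6 in either direction.

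Called genes of DNA replication were all lower in old cells. Of 59 tested genes of replication licensing and the fork, 27 were called lower and 0 higher, and 47 were past 0.6 downward in both isolates, with a median log2 fold change of -1.28 (-1.33 in I79 and -1.28 in I10). MCM10, which joins the helicase to the polymerases, fell in I79 from 15.7 to 1.14 CPM and in I10 from 15.0 to 1.88 CPM (log2 change -3.36, SE 0.27, adjusted p 0.00453). CLSPN, which encodes the checkpoint adaptor claspin, fell by 2.82 on the log2 scale, CDC45, a part of the moving helicase, by 2.75, and CDC6, which loads the helicase onto origins, by 2.70. By family name, 6 of the 10 tested genes with MCM symbols were called lower, and all 10 had negative differences in both isolates. MCM3AP, counted by its symbol, encodes a protein associated with MCM3 and was not called (log2 change -0.15, edgeR adjusted p 0.34). MCM4 is counted among the 10, but its main transcript is listed at 0 in the tables, so its level was not read. Among the 32 not called, RFC1, the large subunit of the clamp loader, stood at 62.5 and 72.1 CPM in I79 young and old and 66.7 and 57.7 CPM in I10 young and old (log2 change -0.002, adjusted p 0.99), and POLE4, a small subunit of the leading-strand polymerase, at 23.6 and 21.6 CPM in I79 young and old and 21.4 and 27.4 CPM in I10 young and old (adjusted p 0.63).

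Of 32 tested genes of nucleotide synthesis, which supply the building blocks of DNA, 10 were called lower and 1 higher (median -0.59). TK1, the salvage kinase of thymidine, fell in I79 from 73.4 to 11.2 CPM and in I10 from 75.1 to 21.2 CPM (log2 change -2.25, adjusted p 0.00621). SHMT1, which supplies one-carbon units, fell by 2.08 and RRM2, the regulated subunit of ribonucleotide reductase, by 1.83. PRPS1, which makes the ribose phosphate that both RNA and DNA precursors need, rose in I79 from 43.7 to 78.9 CPM and in I10 from 45.2 to 92.9 CPM (log2 change 0.95, adjusted p 0.00708). CTPS2 and DCK did not pass the test, with log2 fold changes of -0.01 and 0.05.

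Called genes of mitosis were also all lower, and 66 of 67 fell further in I79 than in I10. Across the lists of mitotic entry, the kinetochore and the spindle, which share no tested member, 67 of 137 tested genes were called lower and 0 higher. The listed cyclin gene CCNA2 did not pass the filter. It went in I79 from 0 to 131 counts and stood at 0 counts in both I10 tables, so its level was not read. The lists had medians of -1.77, -1.48 and -1.72. Over the 67 called genes the median difference was -2.35 in I79 and -1.71 in I10. Of the 27 called replication genes, 13 had the larger fall in I79, with medians of -1.90 and -1.89. The gap between the isolates was not tested, since each isolate and state has 1 table. In bulk RNA fewer cycling cells and less RNA per cell cannot be told apart.

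Among regulators of mitotic entry, MYBL2, the activator that replaces the DREAM repressor, fell in I79 from 32.1 to 2.12 CPM and in I10 from 25.6 to 3.76 CPM (log2 change -3.31, SE 0.31, adjusted p 0.00549). FOXM1, the factor that switches on genes of the second gap phase, fell by 2.40, CDC20, an activator of the anaphase-promoting complex, by 2.37, and the chromosomal passenger kinase AURKB by 2.36. At the kinetochore SPC25 fell by 2.62, ZWINT by 2.59, NDC80 by 2.47 and CENPW by 2.29. NDC80 and SPC25 belong to the same complex that holds microtubules. Of the spindle, KIF20A, a kinesin of cytokinesis, went in I79 from 117 to 10.96 CPM and in I10 from 114 to 25.4 CPM, and KIF11, the kinesin that pushes the spindle poles apart, went in I79 from 66.4 to 9.77 CPM and in I10 from 77.2 to 18.1 CPM (log2 fold changes -2.76 and -2.42). KIFC1 fell by 2.53 and DLGAP5 by 2.42. BUB3, which also serves outside mitosis, stood at 107 and 99.0 CPM in I79 young and old and 128 and 136 CPM in I10 young and old (log2 change -0.01, adjusted p 0.94).

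**Figure D2:**
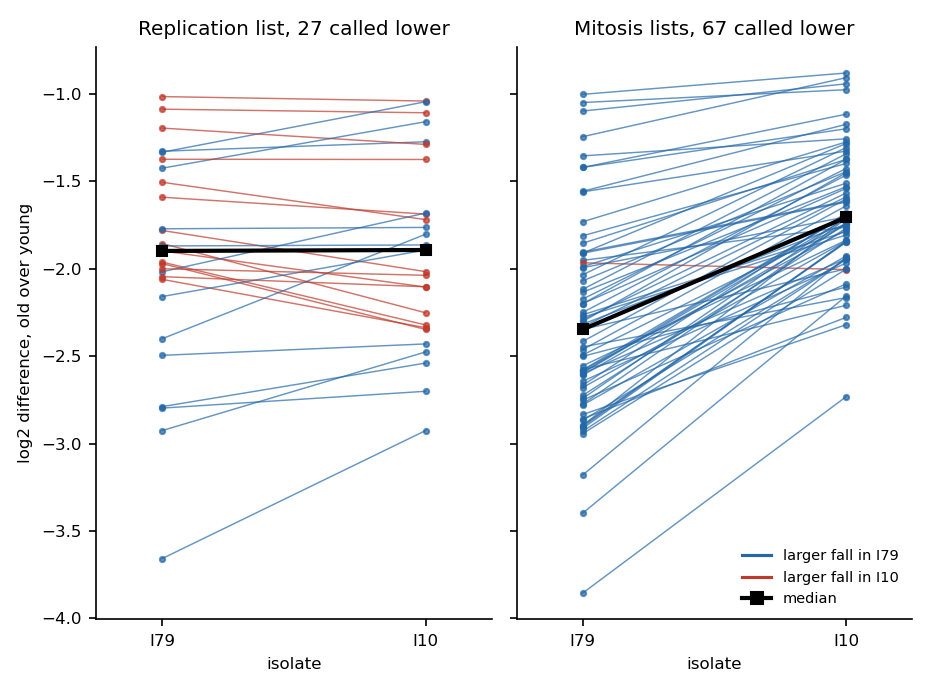
Log2 difference of old over young of each called member of the replication list (27 genes) and of the mitosis lists (67 genes), with I79 and I10 joined by a line for each gene. In the mitosis lists 66 of 67 lines start lower in I79, the larger fall, while in the replication list 13 of 27 do, and black squares mark the medians.

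The promoters of these genes were then read, since the comparison had not used them. The lists were written from known genes of mitosis and replication, so the motif shares describe list members. The same shares over list members that were not called were not computed. Of those members, ASPM held TTTGAA and CENPE did not. RefSeq promoters (GRCh38.p14) of 250 bases before to 50 bases after the start were found for 56 of the 67 called mitosis genes and 24 of the 27 called replication genes. The short motifs were searched on both strands. TTTGAA is the core of the element CHR, which DREAM binds, CCAAT is the site of the factor NF-Y, TTTGGCGC, TTTCCCGC and TTCCCGCC are cores of E2F sites, of which the last overlaps the one before it, and GGGCGG is the GC box. TTTGAA was in 60.7% of the mitosis promoters, in 4.17% of the replication promoters, in 9.72% of all 10411 matched protein-coding genes tested and in 15.4% of all 27305 promoters in the table. CCAAT was in 67.9%, 58.3%, 36.5% and 35.7% in the same order, and both motifs were in 44.6% of the mitosis promoters (25 genes), 0.00% of the replication promoters and 4.05% of the tested genes. The E2F core TTTGGCGC was in 20.8% of the replication promoters and 5.36% of the mitosis promoters against 1.12% of tested genes, and TTTCCCGC was in 6 of the 24 replication promoters and in 3.57% against 2.57%. TTCCCGCC was in 29.2% of the replication promoters, 12.5% of the mitosis promoters and 5.08% of tested genes and the GC box in 79.2%, 73.2% and 70.3%. Neighbouring CATG that start at most 12 bases apart, as in p53 sites, were in 0.00%, 1.79% and 1.34%, and in 0 of 10 promoters of called p53 targets. A match is a run of letters and not a shown site.

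In 11 of the mitosis promoters a CCAAT stood upstream of a TTTGAA within the last 100 bases before the start. The 5 of them with the largest falls are shown to let the spacing be read, as those 100 bases on the strand of the gene, with both motifs on either strand in capitals.
ZWINT (chr10:56361260-56361359, minus strand): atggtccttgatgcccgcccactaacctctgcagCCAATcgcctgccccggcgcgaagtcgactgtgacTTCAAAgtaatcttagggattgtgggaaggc
KIF11 (chr10:92593030-92593129, plus strand): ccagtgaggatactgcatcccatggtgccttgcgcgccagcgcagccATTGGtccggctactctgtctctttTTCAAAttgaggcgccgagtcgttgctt
CDC20 (chr1:43358881-43358980, plus strand): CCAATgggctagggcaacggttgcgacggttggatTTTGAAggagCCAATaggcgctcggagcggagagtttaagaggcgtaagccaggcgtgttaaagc
PLK1 (chr16:23678789-23678888, plus strand): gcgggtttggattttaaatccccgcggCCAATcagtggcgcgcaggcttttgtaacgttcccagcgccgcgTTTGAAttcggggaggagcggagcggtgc
CCNB2 (chr15:59105046-59105145, plus strand): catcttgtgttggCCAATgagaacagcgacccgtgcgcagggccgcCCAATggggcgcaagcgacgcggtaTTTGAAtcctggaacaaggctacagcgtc
The leftmost base of TTTGAA or its complement lies 31 bases before the start in ZWINT, 28 in KIF11, 65 in CDC20, 29 in PLK1 and 29 in CCNB2. The nearest CCAAT upstream of it lies between 25 and 44 bases earlier. PLK1, the polo kinase of mitotic entry, fell by 2.35, and CCNB2, a B-type cyclin, by 2.28 on the log2 scale. By position, TTTGAA lay in the 50 bases before the start in 32.1% of the mitosis promoters against 1.49% of tested genes, and between 200 and 151 bases before it in 3.57% against 2.48%.

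For the replication list the 4 promoters with TTTGGCGC or TTTCCCGC in the same window are shown, with these 2 cores and CCAAT in capitals. The core TTCCCGCC was not searched in this window and is not marked.
GINS2 (chr16:85688955-85689054, minus strand): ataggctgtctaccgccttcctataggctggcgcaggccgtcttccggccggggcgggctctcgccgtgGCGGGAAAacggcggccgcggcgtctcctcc
RFC3 (chr13:33818049-33818148, plus strand): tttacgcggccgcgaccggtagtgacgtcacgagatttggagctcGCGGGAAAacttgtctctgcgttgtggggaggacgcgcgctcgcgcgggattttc
MCM6 (chr2:135876444-135876543, minus strand): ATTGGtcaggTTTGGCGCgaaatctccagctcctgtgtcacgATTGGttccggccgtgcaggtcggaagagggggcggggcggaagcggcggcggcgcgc
POLE (chr12:132687343-132687442, minus strand): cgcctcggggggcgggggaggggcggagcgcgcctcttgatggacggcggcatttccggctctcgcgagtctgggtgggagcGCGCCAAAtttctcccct
GINS2, a subunit of the helicase, fell by 2.23, RFC3, a clamp loader subunit, by 2.03, MCM6 by 1.90 and POLE, the catalytic subunit of the leading-strand polymerase, by 1.03.

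**Figure D3:**
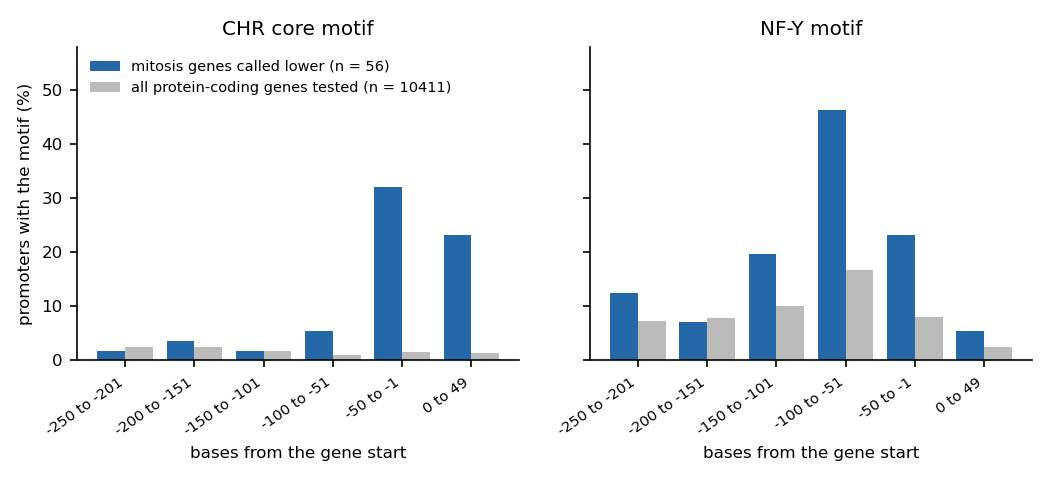
Share of promoters, in percent, with TTTGAA (left) or CCAAT (right) in bins of 50 bases around the gene start, for the 56 mitosis genes called lower and for the 10411 protein-coding genes tested. TTTGAA in the mitosis genes is concentrated in the 100 bases that span the start, and CCAAT in the bin from 100 to 51 bases before it, where its share is 46.4% against 16.7%.

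Of 26 genes of cohesin, condensin and their partners, 11 were called lower and 0 higher (median -0.90), and of 52 genes of recombination, the Fanconi pathway and the checkpoint, 14 were called lower and 0 higher (median -0.90). ESCO2, which locks sister chromatids together in S phase, fell by 2.92, NCAPH, a condensin subunit, by 2.78, the proliferation antigen MKI67 by 2.60, and NCAPG fell by 2.52. The nuclease EXO1 fell by 2.84, the helicase BLM by 2.28 and the helicase BRIP1 by 2.05. MKI67 still stood at 21.8 CPM in I79 old and 54.1 CPM in I10 old, after 194 and 228 CPM in the young tables. CHEK2, a checkpoint kinase, stood at 4.48 and 2.77 CPM in I79 young and old and 4.69 and 10.4 CPM in I10 young and old and was not called. The E2F and RB list had 2 called lower and 0 higher of 20 tested. E2F8, a repressor E2F that is itself a target of E2F, fell by 3.04, and the pocket protein gene RBL1 fell by 1.34.

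Of 19 tested G1 cyclins, kinases and inhibitors, 5 were called higher and 1 lower. CCND1, which encodes cyclin D1, rose in I79 from 207 to 1116 CPM and in I10 from 249.5 to 1662 CPM (log2 change 2.58, SE 0.16, adjusted p 0.00371), beside CCND2 (5.47). CCNG1, a p53 target, rose by 0.99, and CDKN2C, the inhibitor p18, fell by 1.73. CDKN2B, the inhibitor p15, stood at 7.81 and 6.403 CPM in I79 young and old and 9.13 and 12.7 CPM in I10 young and old and was not called (adjusted p 0.75). D-type cyclins and p21 stood high together in both old tables.

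Called targets of p53 were mostly higher. Of 46 tested, 16 were called higher and 1 lower, with a median of 0.99, of 1.19 in I79 and of 0.47 in I10. PTCHD4 rose in I79 from 6 to 660 counts and in I10 from 16 to 236 counts. GDF15, a stress-induced cytokine, rose in I79 from 12.6 to 304 CPM and in I10 from 10.6 to 73.7 CPM (log2 change 3.71, SE 0.46, adjusted p 0.00824). TP53I3 fell in I79 from 48.8 to 18.2 CPM and in I10 from 44.8 to 15.6 CPM (-1.47, adjusted p 0.00458), against the direction of the list. The 29 members not called included MDM2 (0.24) and BAX (0.41). By the looser count 22 members were higher and 1 lower. In the BCL2 family 4 of 17 were called higher and 0 lower. BNIP3, a mitophagy receptor, rose by 1.83, BCL2L1, which encodes the survival protein BCL-XL, by 1.55, the p53-induced PMAIP1 by 1.44 and BNIP3L, a relative of BNIP3, by 1.32.

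**Figure D4:**
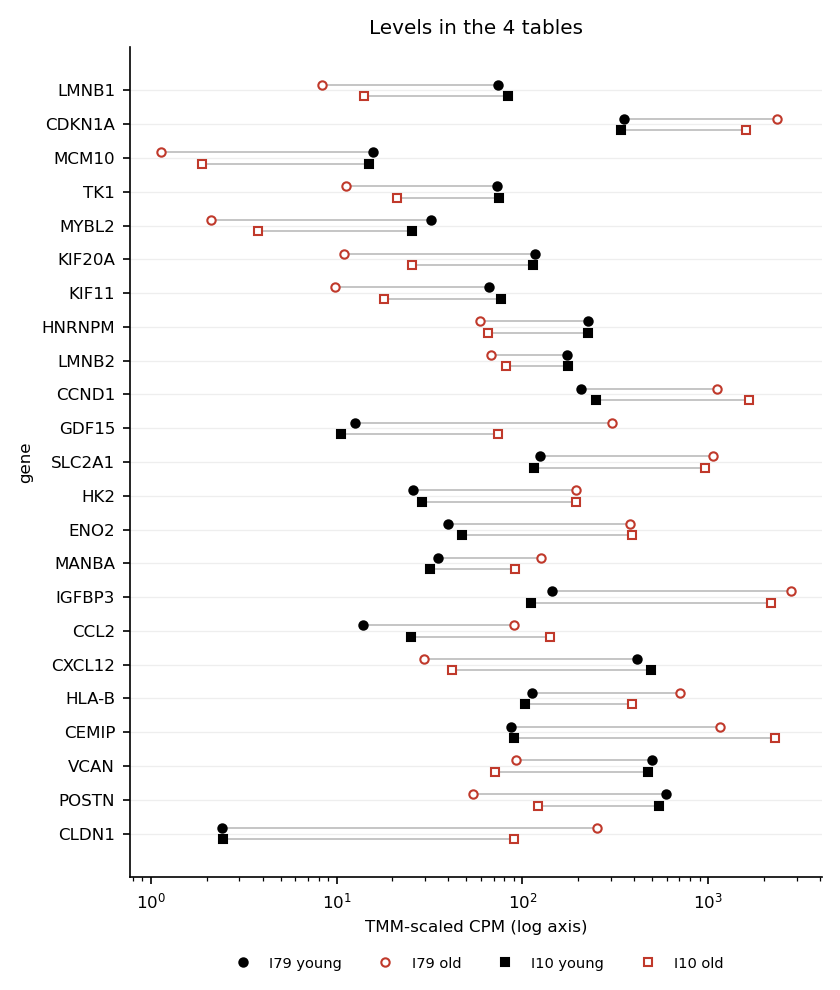
Level of 23 genes named in the text in each of the 4 tables, in TMM-scaled CPM on a log axis, with filled points for young and open points for old, circles for I79 and squares for I10. For each gene both old points lie on one side of both young points.

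Of 23 genes of the lamina and envelope, 5 were called lower and 1 higher. Beside LMNB1, its relative LMNB2 fell in I79 from 174 to 67.9 CPM and in I10 from 175 to 81.2 CPM (-1.23), and TMPO, which encodes the lamina-associated protein LAP2, fell by 1.96. LMNA, the gene of lamins A and C, stood at 462 and 427 CPM in I79 young and old and 486 and 523 CPM in I10 young and old (log2 change -0.005, adjusted p 0.98). SUN1, which couples the lamina to the cytoskeleton, rose by 1.27, and SYNE2, whose product reaches across the outer membrane to SUN proteins, fell by 1.45. Of 47 genes of the nuclear pore and transport, 5 were called lower and 1 higher (median -0.46). KPNA2, an importin alpha, fell by 1.73, and RANGAP1 rose by 0.84.

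Among chromatin proteins the HMG list split. HMGN2, a nucleosome binder, fell in I79 from 385 to 117 CPM and in I10 from 400.5 to 118 CPM (-1.74), HMGB3 fell by 1.59, and HMGA2, an architectural factor of mesenchymal cells, rose (2.41). Of 14 HMG genes, 4 were called lower and 1 higher. Of 41 genes of Polycomb, HP1, H3K9 and DNA methylation, 8 were called lower and 3 higher. CBX2 fell by 3.03, UHRF1, which guides maintenance methylation, by 2.55, the H3K27 methyltransferase EZH2 by 2.29 and the remodeller HELLS by 2.27. CBX7 rose in I79 from 4.35 to 30.4 CPM and in I10 from 4.12 to 18.5 CPM (2.48), PHF1 rose by 1.61 and EZH1 by 0.93. EZH2 and EZH1, the paralogous enzymes of the same complex, moved in opposite directions, as did CBX2 and CBX7, paralogous readers of its mark. RING1 was not called, with a log2 fold change of 0.01.

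Histone genes and their chaperones had 8 lower and 1 higher of 33 tested. MACROH2A2, a variant of repressed chromatin, fell by 2.71, the chaperones ASF1B and ASF1A fell by 2.10 and 1.70, and H2AX, the variant phosphorylated at breaks, by 1.89. H2AC6 rose in I79 from 14.3 to 38.0 CPM and in I10 from 14.1 to 60.6 CPM (1.76). Replication-dependent histone messages lack poly(A) tails, so a library selected on poly(A) holds only their tailed forms. Of 17 deacetylases and sirtuins, HDAC9 (4.32) and HDAC5 (1.91) were called higher and HDAC4 (-0.92) lower. SIRT1 and SIRT3 were not called, at 0.04 and 0.001.

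Of 56 SR and hnRNP genes, 16 were called lower and 0 higher, and 27 were past 0.6 downward in both isolates, with a median of -0.66 (-0.64 in I79 and -0.64 in I10). Their summed level went from 11087 to 6109 TPM in I79 and from 11313 to 6183 TPM in I10. HNRNPM fell in I79 from 225 to 59.4 CPM and in I10 from 227 to 65.4 CPM (log2 change -1.86, SE 0.11, adjusted p 0.00359), HNRNPAB fell by 1.35 and HNRNPR by 1.24. By family name, 5 of 12 tested SRSF genes were called lower, namely SRSF1 (-1.36), SRSF3 (-1.19), SRSF2 (-1.07), SRSF7 (-0.90) and SRSF6 (-0.81). They encode serine and arginine rich proteins that recruit the spliceosome to exons. SRSF9 and SRSF11 did not pass the test, with -0.07 and -0.01, and neither did MBNL1, a splicing factor of differentiated cells, with -0.02.

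Of 47 nucleolar assembly genes, 8 were called lower and 0 higher (median -0.57), among them RRS1 (-1.38), UTP20 (-1.25), POLR1A (-1.20), the large subunit of RNA polymerase I, and NOP2 (-1.09). Of 77 cytosolic ribosomal protein genes, 1 was called lower and 0 higher, with a median of 0.18 that turned negative with plain library totals. The 1 was RPS10, at 8.77 and 2.55 CPM in I79 young and old and 11.6 and 3.92 CPM in I10 young and old, which overlaps an annotated readthrough gene, so its reads may have been split. Of 49 translation factors and tRNA synthetases edgeR called 0, of 76 respiratory chain subunits 0 and of 46 genes of traffic from the endoplasmic reticulum to the Golgi 0. At an unadjusted p under 0.05, 20, 15 and 14 of them passed, and the DESeq2 Wald test called 2, 0 and 1. In these last 3 lists 0 members were past 0.6 alike in both isolates.

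Of 29 tested genes of sugar uptake and glycolysis, 9 were called higher and 0 lower, 13 were past 0.6 upward in both isolates, and the median was 0.69 (0.66 in I79 and 0.61 in I10). SLC2A1, the glucose transporter GLUT1, rose in I79 from 125 to 1063 CPM and in I10 from 116 to 958 CPM (log2 change 3.07, SE 0.13, adjusted p 0.00338). SLC2A3, the transporter GLUT3, rose in I79 from 55.4 to 329.8 CPM and in I10 from 57.9 to 317 CPM (2.51). HK2, which traps glucose as its phosphate, rose in I79 from 25.9 to 195 CPM and in I10 from 29.0 to 195 CPM (2.83), and ENO2, an enolase better known from neurons, rose in I79 from 40.0 to 378 CPM and in I10 from 47.6 to 388 CPM (3.13). In the tricarboxylic acid cycle 1 of 24 was called, the malic enzyme ME3 (1.38), and in cholesterol and fatty acid synthesis 2 of 38, the desaturase family genes FADS3 (1.62) and SCD5 (1.49).

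Of 55 tested lysosomal enzymes and membrane proteins, 11 were called higher and 0 lower, and 21 were past 0.6 upward in both isolates, with a median of 0.62. Their summed level went from 5094 to 8180 TPM in I79 and from 4977 to 7386 TPM in I10. MANBA, a mannosidase, rose in I79 from 35.2 to 127 CPM and in I10 from 31.9 to 91.2 CPM (1.68, adjusted p 0.00429). DPP7 rose by 1.49 and the cholesterol carrier NPC2 by 1.22. The cathepsin gene CTSC went in I79 from 312 to 271 CPM and in I10 from 209 to 378 CPM and was not called. Of 17 subunits of the proton pump 2 were called higher, ATP6V1A (0.90) and ATP6AP2 (0.82). The symbol family of alpha-mannosidases, which trim glycans in lysosomes and in the secretory pathway, had 5 of 9 called higher and 0 lower. They were MAN1C1 (2.30), MAN2A1 (1.90), MAN2B1 (1.10), MAN2B2 (0.99) and MAN1B1 (0.91), of which MAN2B1 and MAN2B2 are lysosomal.

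Of 39 autophagy genes, 6 were called higher and 0 lower. OPTN, a receptor that tethers cargo, rose in I79 from 67.2 to 309 CPM and in I10 from 71.8 to 236 CPM (1.96). SQSTM1, the cargo receptor p62, rose in I79 from 374 to 864 CPM and in I10 from 324 to 648 CPM (1.10). MAP1LC3A rose by 1.24 and CALCOCO1 by 0.91, while PIK3C3 and ATG2B were not called. The stress response list had 6 higher and 1 lower of 36, with ATF3 (2.24), CHAC1 (1.95) and the lipoprotein receptor gene VLDLR (1.89) beside GDF15, and with PHGDH, the first enzyme of serine synthesis, lower (-0.79). PDIA3, a folding enzyme of the endoplasmic reticulum, was not called (0.01). Of 43 antioxidant targets of NRF2, AKR1B1 (1.79) and PRDX4 (0.84) were called higher, and TXNRD1 went down in I79 (-0.39) and up in I10 (0.61).

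Growth factors and their binding proteins were among the largest secreted changes. Of 51 tested genes of the IGF axis and growth factors, 10 were called higher and 3 lower. IGFBP3, which binds insulin-like growth factors, rose in I79 from 144 to 2775 CPM and in I10 from 112 to 2179.9 CPM (log2 change 4.28, SE 0.17, adjusted p 0.00338). IGF2 rose in I79 from 19.9 to 336 CPM and in I10 from 11.7 to 126 CPM (3.76) and STC1, which encodes stanniocalcin, rose in I79 from 26.0 to 339.9 CPM and in I10 from 31.9 to 289 CPM (3.44). IGF1R, the receptor of insulin-like growth factors, fell in I79 from 6.72 to 1.03 CPM and in I10 from 3.75 to 0.663 CPM (-2.60), and the ligand gene IGF1 fell in I79 from 47 to 1 counts and in I10 from 71 to 2 counts. PDGFD fell by 1.29. By family name, 5 of 9 FGF genes were called higher and 0 lower. FGF5 rose in I79 from 37.6 to 219 CPM and in I10 from 56.7 to 260.2 CPM (2.37), FGF1 rose by 2.21, FGF2 by 0.97, FGF11 by 2.18 and FGF9 by 3.31. FGF7, the fibroblast factor for epithelia, stood at 78.2 and 75.4 CPM in I79 young and old and 65.4 and 82.5 CPM in I10 young and old and was not called (adjusted p 0.44). FGF18, at low counts, went in I79 from 0.704 to 0 CPM and in I10 from 0.991 to 0.0553 CPM. It was not called (log2 change -4.65, edgeR adjusted p 0.0232).

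WNT genes moved both ways, with 7 higher and 3 lower of 31. WNT16, a WNT ligand described in senescent cells, rose in I79 from 0.768 to 40.2 CPM and in I10 from 0.365 to 31.3 CPM (log2 change 6.00, SE 0.24, adjusted p 0.00338). WNT5B rose in I79 from 13.6 to 52.9 CPM and in I10 from 14.7 to 77.2 CPM (2.18). DKK3, of an antagonist family, rose in I79 from 382 to 1788 CPM and in I10 from 411 to 1745 CPM (2.16), and so did the antagonist gene SFRP1, in I79 from 266 to 1124 CPM and in I10 from 327 to 970.5 CPM (1.82). FRZB, of the same family as SFRP1, fell by 3.75, the WNT5A receptor gene ROR2 by 1.92, and RSPO3, an amplifier of WNT signals, went in I79 from 35 to 1 counts and in I10 from 45 to 1 counts. In the TGF-beta list 5 of 51 were called higher and 2 lower. INHBB, an activin subunit, rose by 4.17, NOG, the BMP antagonist noggin, by 3.57 and FSTL3, an activin binder, by 1.56, and GDF5 fell by 2.47 and SMAD1 by 1.23. In the Notch list 4 of 16 were called higher and 0 lower, with the ligand DLL4 (3.52), the receptor NOTCH3 (1.03), the glycosyltransferase RFNG (0.96) and the DNA-binding partner RBPJ (0.85). By the looser count 6 Notch members were higher and 4 lower, with a list median of -0.05.

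Chemokines went both ways. Of 14 tested, 3 were called higher and 2 lower, with a median of -0.52. CCL2, the attractant of monocytes, rose in I79 from 13.95 to 89.7 CPM and in I10 from 25.2 to 141 CPM (2.58, SE 0.11, adjusted p 0.00338). CXCL12, a homeostatic chemokine of stromal cells, fell in I79 from 414 to 29.6 CPM and in I10 from 494 to 41.8 CPM (-3.68, SE 0.13, adjusted p 0.00338), and CXCL6 fell by 4.59. ACKR3, the scavenging receptor of CXCL12, went in I79 from 0 to 318 counts and in I10 from 0 to 80 counts, which against a floor of 3 counts in a young table is a rise of at least 89.9-fold for I79 and at least 28.3-fold for I10. CXCL10 went in I79 from 3 to 351 counts and in I10 from 1 to 18 counts, a ratio of 19.1 in I10 (95% counting interval 3.01 to 795). In the wider cytokine list 4 of 41 were called higher and 1 lower, and by the looser count 12 were higher and 6 lower. IL1A (-0.65 in I79 and -3.26 in I10) and IL1B (-1.43 and -4.61) were lower in both isolates and not called. BIRC3, an inhibitor of cell death induced by NF-kB, rose by 3.63, IL16 by 2.27, IL1RAP, the accessory chain of the IL-1 receptor, by 1.31 and NFKB2 by 1.23, while IL1R1, the signalling receptor, fell in I79 from 337 to 144 CPM and in I10 from 317 to 82.0 CPM (-1.59).

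Some inflammatory genes moved in opposite directions in the isolates. The cyclooxygenase gene PTGS2 went in I79 from 4.93 to 11.4 CPM and in I10 from 6.47 to 3.04 CPM, complement C3 in I79 from 6.78 to 79.6 CPM and in I10 from 8.66 to 3.87 CPM and the metalloproteinase gene MMP3 in I79 from 0.640 to 0 CPM and in I10 from 0.782 to 3.32 CPM. None of the 3 was called, and the isolates moved past 0.6 in opposite directions for each. PTGIS, the prostacyclin synthase gene, had 0.67 in I79 and -1.64 in I10. Over all genes tested, 160 of the 4272 genes past 0.6 in both isolates had opposite directions. The interferon list had 1 higher, GBP3 (0.97), and 1 lower, IFIT1 (-1.80), of 43, with a median of 0.02 that turned negative with plain library totals.

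Complement and protease genes moved in both directions. Of 19 complement genes of fibroblasts, 5 were called higher and 1 lower. C7 rose in I79 from 6.85 to 199.5 CPM and in I10 from 6.83 to 61.0 CPM (4.01), CD55, which protects cells from complement, rose in I79 from 15.2 to 129 CPM and in I10 from 14.9 to 74.6 CPM (2.70), MASP1 rose by 2.32 and C1QTNF1 by 2.17, and CFI went in I79 from 30 to 1 counts and in I10 from 70 to 2 counts. Of 22 serpins and plasminogen genes, 7 were called higher and 1 lower. SERPINB7 rose by 3.85, the tissue plasminogen activator gene PLAT rose in I79 from 266 to 1448 CPM and in I10 from 216 to 883 CPM (2.24) and the urokinase receptor gene PLAUR rose by 1.15. SERPINF1, the antiangiogenic factor PEDF, fell by 1.14. Of 39 metalloproteinases and inhibitors, RECK, a membrane inhibitor, rose in I79 from 85.9 to 342 CPM and in I10 from 84.5 to 349.7 CPM (2.02), ADAMTSL4 rose by 2.68, the sheddase ADAM10 by 1.18 and ADAM15 by 0.77, while ADAMTS3 fell by 3.02 and MMP16 by 1.38.

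Of 19 tested genes of antigen presentation by class I molecules, 7 were called higher and 0 lower, with a median of 0.66. HLA-B rose in I79 from 113 to 706 CPM and in I10 from 103 to 391 CPM (2.28, SE 0.21, adjusted p 0.00523), HLA-E rose in I79 from 121 to 717 CPM and in I10 from 121 to 456 CPM (2.24), HLA-C rose by 1.57, and MICA, a stress ligand of natural killer cells, by 1.34. Alleles of these genes are alike and their reads may be split between them. TAP2 and the immunoproteasome gene PSMB9 were not called (-0.15 and 0.29). HLA-C, HLA-B, MICA and MICB were neighbours on chromosome 6 (31236526 to 31478901) that moved alike, with MICB at 0.97 and not called. On chromosome 9 lie the neighbours CD274 and PDCD1LG2, genes of the ligands of the inhibitory receptor PD-1. CD274 rose in I79 from 9.92 to 29.1 CPM and in I10 from 8.97 to 28.0 CPM (1.60) and PDCD1LG2 rose in I79 from 12.8 to 32.4 CPM and in I10 from 12.4 to 44.7 CPM (1.60), with RIC1 (0.79) called and ERMP1 (1.55) not called beside them.

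Of 20 fibrillar and associated collagens, 2 were called higher and 0 lower, COL13A1 (1.26) and COL7A1 (1.14), and their summed level was 10727 and 10166 TPM in I79 young and old and 10684 and 11290 TPM in I10 young and old. Of 25 genes of collagen processing, 5 were called higher and 1 lower (median 0.62). P3H2, a prolyl hydroxylase, rose in I79 from 21.4 to 175 CPM and in I10 from 20.8 to 307 CPM (3.46), and the crosslinking oxidase LOX rose in I79 from 396 to 1424 CPM and in I10 from 500.1 to 2248 CPM (2.01). LOXL3 rose by 2.44 and LOXL2 by 1.77, and P4HA3 fell by 1.60. In the basement membrane list LAMA1 rose by 2.37, LAMA3 by 1.57, NID2 by 1.29 and AGRN by 0.86, and LAMA2 fell by 1.58. Its COL4A1 moved down in I79 (-0.66) and up in I10 (0.22).

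The hyaluronan and proteoglycan list held some of the largest changes of abundant genes. CEMIP, which degrades hyaluronan, rose in I79 from 87.4 to 1158 CPM and in I10 from 90.4 to 2285 CPM (log2 change 4.20, SE 0.29, adjusted p 0.00394). VCAN, the hyaluronan-binding versican, fell in I79 from 500.0 to 92.5 CPM and in I10 from 473 to 71.0 CPM (-2.58, SE 0.14, adjusted p 0.00338), while HAS2, a hyaluronan synthase, rose in I79 from 10.6 to 36.7 CPM and in I10 from 19.3 to 47.9 CPM (1.54). Of 26 genes, 6 were called higher and 3 lower. Among elastic fibre and matrix glycoproteins 8 of 37 were called higher and 5 lower. IGFBP7 rose in I79 from 122 to 729.9 CPM and in I10 from 102 to 709 CPM (2.69), and FBN2 rose by 2.38, CCN4 by 2.08 and ECM1 by 1.83. POSTN, which encodes periostin, fell in I79 from 593 to 54.5 CPM and in I10 from 544 to 122 CPM (-2.80), elastin (ELN) fell by 1.81, MFAP2 by 2.29, and SPON1 went in I79 from 52 to 1 counts and in I10 from 92 to 1 counts.

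Of 16 integrins, 5 were called higher and 1 lower (median 0.71), with ITGA8 (3.97), ITGA10 (2.92), ITGB5 (2.11) and ITGA3 (1.45) higher and ITGB8 (-1.72) lower. ITGA11, a collagen receptor, went in I79 from 56.3 to 11.1 CPM and in I10 from 51.0 to 51.9 CPM and was not called. Of 30 YAP and TEAD targets, 9 were called higher and 2 lower, among them ANKRD1 (4.26), CRIM1 (1.91) and CCN1 (1.71), while the factor gene TEAD2 fell by 1.85. In the contractile list ACTA2, the smooth muscle actin of myofibroblasts, went down in I79 (-0.96) and up in I10 (0.41), and MYH11, a smooth muscle myosin, fell by 3.24 and MYH10, a nonmuscle myosin, by 1.11. The 10 pericyte and smooth muscle markers, MYH11 among them, summed to 957 and 556 TPM in I79 and to 724 and 873 TPM in I10, young and old, and the part of such cells was not tested. TUBB3 fell in I79 from 234 to 32.1 CPM and in I10 from 239 to 55.8 CPM (-2.48), and STMN1, which destabilises microtubules, fell by 1.08 (2 of 33 called).

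The pregnancy-specific glycoproteins had the highest median of the 72 lists. The lists were chosen with earlier results of these data known, so this rank is a description only. They are secreted immunoglobulin-like proteins made mainly by the placenta. Of 8 tested, 7 were called higher and 0 lower, and all 8 were past 0.6 upward in both isolates, with a median of 4.85. Their summed level went from 19.3 to 546 TPM in I79 and from 19.3 to 412 TPM in I10. PSG4 rose in I79 from 13.6 to 295 CPM and in I10 from 11.7 to 276 CPM (log2 change 4.50, SE 0.12, adjusted p 0.00338), and PSG5 rose in I79 from 2.56 to 100 CPM and in I10 from 2.97 to 54.7 CPM (4.72). PSG2 went in I79 from 0 to 79 counts and in I10 from 0 to 42 counts, against the same floor a rise of at least 22.3-fold for I79 and at least 14.8-fold for I10. PSG6 went in I79 from 1 to 14 counts and in I10 from 1 to 13 counts and was not called (adjusted p 0.0258). The genes are near copies of each other, so reads may have been split among them, and the sum is firmer than any one member. The 8 genes and their neighbours PHLDB3 and ETHE1 formed the longest run of neighbours that moved alike, on chromosome 19 from 43225790 to 44031382 of GRCh37.

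RefSeq promoters were at hand for 3 of the 8 genes, and the 100 bases before the start show how alike they are.
PSG3 (chr19:42740482-42740581, minus strand): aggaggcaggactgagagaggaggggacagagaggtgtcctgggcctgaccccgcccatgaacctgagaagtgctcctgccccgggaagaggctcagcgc
PSG4 (chr19:43205639-43205738, minus strand): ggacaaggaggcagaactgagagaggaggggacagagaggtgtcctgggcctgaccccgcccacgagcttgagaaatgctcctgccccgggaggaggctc
PSG5 (chr19:43186537-43186636, minus strand): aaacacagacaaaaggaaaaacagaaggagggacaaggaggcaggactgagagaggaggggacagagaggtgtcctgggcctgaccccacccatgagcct
These coordinates are of GRCh38.p14. Shifted by 5 bases, the PSG3 and PSG4 windows were identical at 89 of 95 positions (93.7%), and shifted by 35 bases PSG3 and PSG5 at 63 of 65 (96.9%). PSG3 itself went in I79 from 2 to 138 counts and in I10 from 6 to 164 counts.

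In all 25 runs of 4 or more neighbouring protein-coding genes moved alike past 0.6, 17 upward and 8 downward, with 113 genes. Overlapping neighbours can share reads. On chromosome 11 the run held HBD, an unnamed gene with the identifier ENSG00000284931, HBG2 and HBE1, which lie in the cluster of beta-type globins, and the olfactory receptor gene OR51M1. HBD went in I79 from 0 to 119 counts and in I10 from 1 to 228 counts, and HBE1 went in I79 from 2 to 272 counts and in I10 from 5 to 14 counts and was not called (adjusted p 0.0375). OR51M1 went in I79 from 0 to 50 counts and in I10 from 0 to 69 counts. On chromosome 17 KRTAP1-5, a keratin-associated protein of hair, rose in I79 from 0.896 to 23.9 CPM and in I10 from 0.834 to 41.2 CPM (5.21) beside KRTAP2-3, KRT34 and KRT15, which were not called. On chromosome 3 the run held P3H2, CLDN1, IL1RAP, UTS2B and CCDC50. On chromosome 19 a run of 6 zinc finger genes from ZNF100 to ZNF724 was lower, with a median of -1.79 and 0 called.

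The highest rises among called genes at 5 CPM or more in both old tables, and the deepest falls among those at 5 CPM or more in both young tables, were listed as well. CLDN1, which encodes a tight junction protein of epithelia, rose in I79 from 2.43 to 252 CPM and in I10 from 2.45 to 89.7 CPM (log2 change 5.95, SE 0.36, adjusted p 0.00371). RRAD, a small GTPase, went in I79 from 12 to 440 counts and in I10 from 0 to 211 counts, SEMA6A, a guidance cue, in I79 from 3 to 275 counts and in I10 from 3 to 124 counts, and CLEC2B, a lectin, in I79 from 7 to 301 counts and in I10 from 6 to 264 counts. PNMA2, of a family derived from retroelements, rose in I79 from 0.576 to 32.2 CPM and in I10 from 0.678 to 23.6 CPM (5.43). Among the deepest falls, PTGFRN fell by 5.33, the sodium channel gene SCN7A by 4.86, GDAP1 by 4.81, DOK5 by 4.51, PDE1A by 4.32 and MAP2K6, a kinase upstream of p38, fell by 4.38.

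Of 46 developmental transcription factors, 6 were called lower and 1 higher. TBX4, the T-box factor of lung and hindlimb mesenchyme, fell in I79 from 8.13 to 0.217 CPM and in I10 from 12.8 to 0.166 CPM (-5.70, SE 0.37, adjusted p 0.00371). SOX11 fell by 2.20 and HOXA5, a HOX gene of the lung, by 1.71. From the top list, PRDM6 and NFIB fell by 4.78 and 4.28. ZEB1, a factor of mesenchymal identity, rose by 1.04, and SOX9 had -0.98 in I79 and 1.15 in I10. Guidance genes moved both ways, with 7 higher and 5 lower of 50, such as RGMB higher (2.25) and EPHA4 (-2.50), NRP1 (-1.83) and SEMA3D (-2.74) lower. Of 47 ion channels 8 were called higher and 2 lower. ANO1, a calcium-activated chloride channel, rose in I79 from 4.10 to 69.2 CPM and in I10 from 6.99 to 94.7 CPM (3.90), and KCNK2, a leak channel, fell by 1.75.

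Some calls named above did not stand under every setting, beside the tables left out as given with the first count. Over protein-coding genes alone, CXCL6, OR51M1 and PSG2 did not reach the call. Without the isolate term, ACKR3, AURKB, BCL2L1, CCN4, CCNB2, COL7A1, CXCL10, DLGAP5, DPP7, ENSG00000284931, FGF1, FGF11, GBP3, GDF15, HAS2, HELLS, IGF1R, IL1R1, KCNK2, KIFC1, MKI67, MMP16, NCAPG, NOP2, PHGDH, PRDM6, RPS10, RRAD, RRM2, RRS1, SEMA3D, SQSTM1 and TEK did not reach the call. With plain library totals, ADAM15 and RIC1 did not reach the call. With length-scaled counts, ADAM15, CXCL6, FGF1, FGF9, IGF1R, LAMA3 and MMP16 did not reach the call. With the DESeq2 Wald test, ACKR3, OR51M1 and PSG2 did not reach the call. Without the table of I79 old, CXCL10 did not reach the call. Without the table of I10 old, HAS2 did not reach the call.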

How the data were processed

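Poly(A) RNA of 8 samples (2 titles for each of I79 young, I79 old, I10 young and I10 old) stands behind 4 deposited tables, each 1 column per isolate and state. The authors deposited estimated counts and TPM per transcript. The labels name STAR 2.6.0c, featureCounts and GRCh37, while the tables have the layout of a transcript quantifier, whose name and version are not given in the sources used here. The tables of the other treatments were not used here.

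Estimated counts were summed per gene through the gene annotation of GRCh37 (97.67% of transcript identifiers matched), rounded, filtered with filterByExpr and scaled with TMM in edgeR 4.0.16 (R 4.3.3). The quasi-likelihood test had isolate and state as terms, which leaves 1 residual degree of freedom. It moderates the variance of each gene towards a trend over all genes. A gene was called where its Benjamini-Hochberg adjusted p was below 0.01 and its log2 fold change past 0.6 in either direction. SE is the log2 fold change over the square root of F. Differences within an isolate are of log2 CPM with a prior count of 2. TPM summed per list compare levels per length. Counting intervals are exact (Clopper-Pearson, 95%), the floor of a count of 0 is 3 counts, and both cover counting error only. Symbol families were taken where at least 8 members were tested, at least 5 of them were called in 1 direction and at least 30% were called in all.

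Genes are named by a rule. LMNB1 and CDKN1A come first. Each list then gives its called members with the largest changes, up to 4 in each direction, and up to 2 that were not called and had the smallest changes or opposite isolates. The 12 highest and 12 lowest called protein-coding genes at 5 CPM or more follow, then members of runs of at least 4 neighbours. Beyond it, called members of symbol families, genes with printed promoters and the genes of the added low-oxygen list were named after their values were seen, and some genes the rule names are not reported here. The members and lists were chosen with earlier results of these data known. Promoters are RefSeq (GRCh38.p14), matched by symbol with the first entry taken. Gene coordinates are of GRCh37 and the builds were not mixed. Alternatives were no filter, plain library totals, no isolate term, length-scaled counts, protein-coding genes alone, each table or isolate left out, an adjusted p under 0.05 and the Wald test of DESeq2 1.42.0.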

Additional observations from a re-analysis of the deposited data

Results flagged for a closer look

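Among the genes named in the report, 6 had differences past 0.6 in opposite directions in the isolates, which drew attention to them. Each isolate and state has 1 table, so the difference between the isolates was not tested, and none of the 6 was called. C3, the central complement component, had a log2 difference of 3.53 in I79 and of -1.14 in I10. PTGS2, the inducible cyclooxygenase, had 1.19 and -1.06, and PTGIS, the prostacyclin synthase, 0.67 and -1.64, so both enzymes of prostacyclin synthesis were higher in I79 old and lower in I10 old than in their young tables. MMP3, a matrix metalloproteinase, went the other way, with -2.75 in I79 and 1.94 in I10, as did CHEK2, the checkpoint kinase (-0.67 and 1.14), and SOX9, a factor of cartilage and lung development (-0.98 and 1.15). Over all genes tested, 160 of the 4272 past 0.6 in both isolates had opposite directions.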

How the results depend on the processing

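The count of 1415 called genes (856 higher and 559 lower) moved with the processing. Without a filter on low counts 4249 genes were called (2214 and 2035), with plain library totals 3148 (1026 and 2122), with the DESeq2 Wald test 2159 (1295 and 864) and at an adjusted p under 0.05 3847 (2030 and 1817). With length-scaled counts from TPM 2068 were called (1206 and 862) and over protein-coding genes alone 1405 (862 and 543). Of the 1415 genes, 1399 were also called by DESeq2 and 1364 with plain totals. Leaving out 1 table or 1 isolate gave counts from 0 to 6240 in all, from 0 to 3271 higher and from 0 to 2969 lower, where the upper ends are genes past 0.6 in I79 alone with no test (5650 in I10 alone). Without I79 young or I10 young edgeR called 0, at lowest adjusted p-values of 0.0452 and 0.0404 and with 4382 and 4418 genes at an unadjusted p under 0.05. Without I79 old and I10 old it called 3154 and 3836. The cause was not tested. In these fits the lone table was assumed to vary like the others. No paired analysis by replicate number was possible because each state of an isolate has 1 column, which carries no number. The isolate was the block, and without this block the fit called 1748 (991 and 757), of which 1213 were among the 1415. No called gene named in the text changed sign under any of these settings. With 1 residual degree of freedom and counts of 14991385 to 20632959 per table, genes at a few counts have wide intervals.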

Other observations

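A list of 42 genes known to respond to low oxygen was written after the values had been seen, so its count is a description. Of 41 tested, 25 were called higher and 0 lower, and 36 were past 0.6 upward in both isolates, with a median log2 fold change of 1.68 (1.85 in I79 and 1.36 in I10). The list shares 12 members with the glycolysis list, and 27 of the 41 tested are in any of the 72 lists. ADM, which encodes the vasodilator adrenomedullin, rose in I79 from 133 to 532 CPM and in I10 from 115 to 379.5 CPM (1.87). NDRG1 rose in I79 from 122 to 703 CPM and in I10 from 115 to 777 CPM (2.64), and ERO1A, the disulfide oxidase of the endoplasmic reticulum, rose in I79 from 69.8 to 418 CPM and in I10 from 77.9 to 285 CPM (2.22). MXI1, a MYC antagonist, rose by 2.20. VEGFA, the vascular growth factor, stood at 217 and 413 CPM in I79 young and old and 217 and 372 CPM in I10 young and old and missed the call (log2 fold change 0.85, edgeR adjusted p 0.0101). LDHA was not called either (0.39). The labels give no oxygen level for these cultures.

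Of 30 immediate early genes, 8 were called higher and 0 lower (median 0.55). ATF3 and MAFF, both leucine zipper factors, rose by 2.24 and 1.83, and DUSP5 and DUSP6, phosphatases of ERK, rose in I79 from 15.9 to 52.4 CPM and in I10 from 14.5 to 76.2 CPM (2.06) and in I79 from 16.8 to 44.5 CPM and in I10 from 13.0 to 61.1 CPM (1.82). Of 16 clock genes, RORA, a nuclear receptor, rose in I79 from 4.80 to 76.8 CPM and in I10 from 6.00 to 63.7 CPM (3.69) and BHLHE40 rose by 1.79, while the core factors BMAL1 and CLOCK were not called (-0.07 and 0.11). In the adipogenic list 3 of 19 were called higher and 2 lower. PPARG, the master factor of fat cells, rose in I79 from 5.89 to 40.4 CPM and in I10 from 7.61 to 46.8 CPM (2.69), ANGPTL4, a lipase inhibitor, by 3.03 and MGLL, which cleaves monoglycerides, by 2.45. FABP5 fell by 2.42, and ABCA1, the cholesterol exporter, by 1.08.

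Of 41 chaperones, 6 were called lower and 1 higher. The mitochondrial pair HSPD1 and HSPE1, neighbours that assemble into one folding chamber, fell by 0.88 and 0.89, HSPH1 by 0.99, and CCT6A, a subunit of the cytosolic chamber, by 0.98. DNAJB2 rose by 0.79, and HSPB1, a small heat shock protein, was not called (0.03). HSPE1 was not called without the isolate term, nor DNAJB2 with plain library totals. Of the lists not described so far, the proteasome had 1 higher and 1 lower of 43, the mitochondrial ribosome and import 1 and 2 of 68, the centriole and cilium 0 and 4 of 55, shelterin and telomerase 0 and 1 of 18, prostaglandin synthesis 3 and 0 of 17, the clustered protocadherins 2 and 2 of 30 and targets of AHR 0 and 1 of 6. Of 5 metallothionein genes and regulators edgeR called 0, with 1 at an unadjusted p under 0.05 and 1 called by the DESeq2 Wald test.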
